A study of Mus musculus with 8 samples.

Results

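The genes described here move chloride, bicarbonate and water across the epithelium of the exocrine pancreas. They were chosen by symbol as a list of 10 genes, 3 carbonic anhydrases (Car2, Car8 and Car12), 3 transporters of chloride or bicarbonate (Cftr, Slc4a4 and Slc12a2) and 4 aquaporins (Aqp1, Aqp5, Aqp8 and Aqp12). Of these 10, 9 were analysed among the 15047 gene symbols of the RNA-Seq data, and Car12 was not analysed here. The mice were 8 males, of which 3 C57BL/6 WT mice received LFD, 3 C57BL/6 WT mice received HFD, in which fat supplied 60% of the calories, and 2 C57BL/6J ob/ob mice, which lack leptin, received standard chow. The methods describe mice divided at the age of 4 weeks into groups on standard chow, HFD or LFD, fed for 10 weeks. The labels name the tissue as pancreas. All groups also carried mT organoids, as the methods and legends of the study describe, which were grown from tumors of genetically engineered mice that carry Pdx1-Cre and injected into the pancreas. A bulk value therefore pools host acini, host ducts, stroma and engrafted cells, and in such tissue fewer cells of a type and less RNA per cell cannot be told apart. The ob/ob mice differ from the LFD mice in genotype and in chow, and these cannot be told apart either. Values are rlog, a log2 scale of gene counts corrected for library size on which differences of genes with few reads are shrunken, and values by mouse are listed in the order of the replicate numbers.

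Pancreatic juice is made in 2 steps. Acinar cells release digestive enzymes in a small volume of chloride-rich fluid, and the cells of the ducts then add bicarbonate and water, which flush the enzymes to the gut and neutralize gastric acid. In the duct, cytosolic carbonic anhydrase forms bicarbonate, a sodium-bicarbonate cotransporter brings more of it in through the basal membrane, and the CFTR channel together with anion exchangers moves it to the lumen. Water follows by osmosis through aquaporins. Secretin acting through cyclic AMP is the main stimulus of this ductal secretion, and loss of CFTR in cystic fibrosis leaves a viscous juice that destroys the gland.

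The 30 acinar marker genes took 60.9% to 63.1% of the summed linear values in the 3 LFD mice. In the HFD mice these markers took 60.0%, 40.5% and 21.3%, and in the ob/ob mice 57.4% and 23.9%. HFD replicates 2 and 3 and ob/ob replicate 2 therefore stood apart from the other 5 mice, while HFD replicate 1 lay beside the LFD mice. The mean rlog of 13 duct markers ranged from 9.07 to 9.36 in LFD, 9.38 to 10.1 in HFD and 8.69 to 9.41 in ob/ob. None of the duct markers was missing from the data, and Krt19, an epithelial keratin of ducts, lay between 8.95 and 11.5 in all 8 mice. The mean of 10 fibroblast markers was 9.47 to 9.93 in LFD and above that in every obese mouse, 10.4 to 11.1 in HFD and 10.7 to 11.7 in ob/ob, as was that of 12 leukocyte markers, with 6.74 to 7.71 in LFD, 7.81 to 8.61 in HFD and 8.13 to 8.55 in ob/ob. The mean of 13 islet markers was 8.50 to 9.43 in LFD, 8.03 to 8.72 in HFD and 9.29 to 10.3 in ob/ob. The part of these cell types in the differences between groups was not tested. The sequencing depth is unknown, so counting error could not be estimated separately, and the error used is the spread between mice.

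With limma over all genes, 0 of the 9 transport genes passed an adjusted p-value of 0.05. This held for HFD against LFD, ob/ob against LFD and ob/ob against HFD, beside 0.0% of all genes in each comparison. The study itself reports differentially expressed genes at an adjusted p-value under 0.05 between obese and lean mice, with DESeq2 on gene counts. Counts were not used here, and the values below are from limma on rlog. Before adjustment, Car2 and Slc4a4 were below 0.05 for HFD against LFD, 2 of 9 beside 19.8% of all genes, so 2 of 9 was close to the share of all genes. Between ob/ob and LFD it was 0 of 9 beside 18.8% of all genes. Between ob/ob and HFD, Car2, Slc12a2 and Aqp5 had an unadjusted p-value under 0.05, 3 of 9 beside 3.91% of all genes. The LFD mice are shared by the comparisons of HFD and of ob/ob with LFD, and the HFD mice by the first and the last. The median log2 difference of the 9 genes was 0.42 for HFD minus LFD, where it was 0.03 over all genes, -0.19 for ob/ob minus LFD (0.04 over all genes) and -0.56 for ob/ob minus HFD (0.01 over all genes).

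HFD replicate 1 decided the count for HFD against LFD. Without it, 5 of 9 passed an adjusted p-value of 0.05 with limma, namely Cftr, Slc4a4, Slc12a2 and Car2, which were higher in HFD, and Aqp12, which was lower, beside 18.7% of all genes. The HFD mice also enter the error of the comparison of ob/ob with LFD, in which 3 of 9 had an unadjusted p-value under 0.05 without HFD replicate 1, beside 27.1% of all genes.

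**Figure D1:**
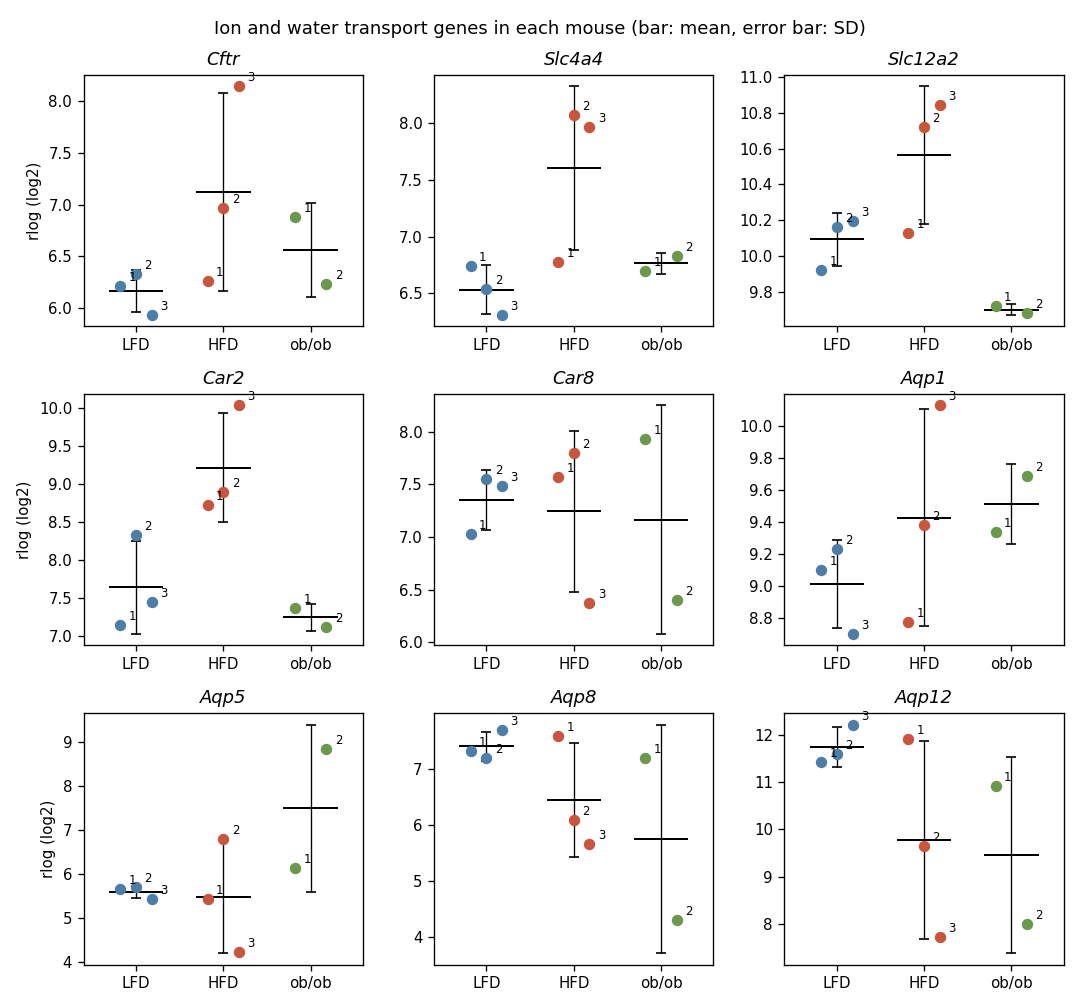
The rlog value (log2) of each of the 9 genes in each mouse, by group, with the replicate number beside each point, a bar at the group mean and an error bar of 1 SD. The 3 HFD mice lay above all LFD mice for Car2 and Slc4a4, the 2 ob/ob mice lay below all other mice for Slc12a2, and Aqp12 and Aqp8 were low in HFD replicates 2 and 3 and ob/ob replicate 2.

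Among the transporters, the values were higher in HFD than in LFD on average, and the ob/ob means lay below the HFD means. Cftr (chr6:18170687-18322768 on GRCm38, plus strand, Gencode M21) encodes the cyclic AMP-gated anion channel of the apical membrane of ducts. It had rlog values of 6.22, 6.33 and 5.94 with LFD, 6.26, 6.96 and 8.14 with HFD, and 6.88 and 6.24 in the ob/ob pair. HFD replicate 3 was the highest of all mice, and HFD replicate 1 and ob/ob replicate 2 fell within the range of LFD, so the groups overlapped. The log2 difference was 0.96 between HFD and LFD (standard error 0.44, unadjusted p = 0.0602, adjusted p = 0.271 with limma) and 0.40 between ob/ob and LFD (standard error 0.50, adjusted p = 0.66). Without HFD replicate 1 the difference between HFD and LFD was 1.39 (adjusted p = 0.0391 with limma), and without HFD replicate 3 it was 0.45. An exon of Cftr shares 129 bases with Gm15592 on the opposite strand, and whether the libraries keep the strand is not given in the sources used here, so reads of that stretch cannot be assigned to one of them.

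Slc4a4 (chr5:88886818-89239653, plus strand) encodes the electrogenic sodium-bicarbonate cotransporter NBCe1, which loads duct cells with bicarbonate from the blood side. Its rlog values were 6.74, 6.54 and 6.31 with LFD, 6.77, 8.07 and 7.97 with HFD, and 6.70 and 6.83 in the ob/ob pair. HFD replicates 2 and 3 stood above the other 6 mice, and HFD replicate 1 exceeded the highest LFD mouse by a margin that is small against the spread within LFD (SD 0.22, n = 3). LFD averaged 6.53 ± 0.22 (SD, n = 3), HFD 7.60 ± 0.72 (SD, n = 3) and ob/ob 6.76 ± 0.09 (SD, n = 2). The log2 difference between HFD and LFD was 1.07, a 2.10-fold higher value in HFD (standard error 0.34, unadjusted p = 0.0132, adjusted p = 0.194 with limma), and 1.49 without HFD replicate 1 (adjusted p = 0.014). The ob/ob mice differed from LFD by 0.23 (standard error 0.39, adjusted p = 0.75 with limma) and from HFD by -0.84 (standard error 0.39, unadjusted p = 0.0585, adjusted p = 1.00). RefSeq lists 2 start sites for Slc4a4, and the annotation holds 7 coding transcripts, which the gene value pools.

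Slc12a2 (chr18:57878678-57946821, plus strand) encodes the sodium-potassium-chloride cotransporter NKCC1, which brings chloride into secreting cells across the basal membrane. It varied least among the 9 genes, with rlog values of 9.92, 10.16 and 10.19 with LFD, 10.13, 10.72 and 10.85 with HFD, and 9.72 and 9.68 in the ob/ob pair. Both ob/ob mice lay below every LFD and every HFD mouse. Between ob/ob and HFD the mice of the groups did not overlap for 2 of the 9 genes and 13.3% of all genes, and between ob/ob and LFD for 5 of the 9 genes and 45.9% of all genes. The log2 difference was -0.87 between ob/ob and HFD (standard error 0.24, unadjusted p = 0.00544, adjusted p = 1.00 with limma), 0.47 between HFD and LFD (standard error 0.21, adjusted p = 0.256) and -0.39 between ob/ob and LFD (standard error 0.24, adjusted p = 0.365). Without HFD replicate 1, Slc12a2 was higher in HFD than in LFD by 0.69 (adjusted p = 0.027 with limma).

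Of the carbonic anhydrases, Car2 had the largest difference between HFD and LFD relative to its error among the 9 genes, and Car8 differed between groups by less than its standard error. Car2 (chr3:14886273-14900770, plus strand) encodes the cytosolic enzyme that forms bicarbonate in duct cells and is also abundant in red blood cells. Car2 had rlog values of 7.15, 8.33 and 7.45 with LFD, 8.72, 8.90 and 10.04 with HFD, and 7.37 and 7.12 in the ob/ob pair. All 3 HFD mice were above all LFD and ob/ob mice, also HFD replicate 1, whose acinar share was close to that of the LFD mice. Between HFD and LFD the groups did not overlap for Car2 and Slc4a4, 2 of the 9 genes, and for 25.2% of all genes.

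Car2 averaged 7.64 ± 0.61 (SD, n = 3) with LFD, 9.22 ± 0.71 (SD, n = 3) with HFD and 7.25 ± 0.17 (SD, n = 2) in the ob/ob mice. HFD exceeded LFD by 1.58 on the log2 scale, or 2.98-fold (standard error 0.40, unadjusted p = 0.00375, adjusted p = 0.179 with limma). ob/ob was lower than HFD by 3.93-fold, a log2 difference of -1.97 (standard error 0.45, unadjusted p = 0.00191, adjusted p = 0.883 with limma), and differed from LFD by -0.40 (standard error 0.45, adjusted p = 0.623). Leaving out each mouse in turn gave differences between HFD and LFD from 1.17 to 1.92, and without HFD replicate 1 the adjusted p-value was 0.0255 with limma. With the acinar mean as a covariate the difference between HFD and LFD was 1.24. Of 8 red cell markers 7 were measured, and their mean rlog ranged from 7.95 to 8.61 in LFD, 7.57 to 10.5 in HFD and 7.21 to 7.80 in ob/ob. In HFD replicate 2 the red cell mean, 7.57, was below that of every LFD mouse, while Car2 was above every LFD mouse. In HFD replicates 1 and 3 the red cell mean was above that of every LFD mouse. Epb42, a red cell membrane protein, was at 6.30 in HFD replicate 3 and 2.26 to 3.68 in the other 7 mice. Over all mice, the difference of Car2 from the red cell mean had an SD of 0.67, and that from the duct marker mean 0.77. The part of red cells in the value of Car2 was not tested in any of the mice. The duct marker mean was also above every LFD mouse in all 3 HFD mice, in replicate 1 by a small margin (9.38 against 9.36), and the part of duct cells was not tested.

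Car8 (chr4:8143362-8239041, minus strand) encodes a carbonic anhydrase-related protein without catalytic activity that binds the inositol trisphosphate receptor, a calcium channel of the endoplasmic reticulum. Its rlog values were 7.03, 7.56 and 7.48 with LFD, 7.57, 7.79 and 6.37 with HFD, and 7.93 and 6.40 in the ob/ob pair. HFD replicate 3 and ob/ob replicate 2, the mice with the lowest acinar share, were the lowest for Car8, whereas HFD replicate 2, with an intermediate share, was above all LFD mice. The means were 7.36 ± 0.28 (SD, n = 3) for LFD, 7.25 ± 0.77 (SD, n = 3) for HFD and 7.16 ± 1.09 (SD, n = 2) for ob/ob. The log2 differences of HFD and of ob/ob from LFD were -0.11 and -0.19, each less than its standard error (0.47 and 0.53).

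Among the aquaporins, Aqp8 and Aqp12 were below all LFD mice in the 3 acinar-poor mice, whereas Aqp1 was above all LFD mice there and Aqp5 lay on either side of them. Aqp1 (chr6:55336432-55348555, plus strand) encodes the water channel of capillary endothelium, red cells and duct cells. Its rlog values were 9.10, 9.23 and 8.70 with LFD, 8.77, 9.38 and 10.13 with HFD, and 9.34 and 9.69 in the ob/ob pair. Both ob/ob mice were above all LFD mice, and the HFD mice overlapped with LFD, with HFD replicate 3 the highest of all mice. The log2 difference was 0.42 between HFD and LFD (standard error 0.32, adjusted p = 0.478 with limma) and 0.50 between ob/ob and LFD (standard error 0.36, adjusted p = 0.445). The mean of 10 endothelial markers was 7.15 to 7.49 in LFD, 7.14 to 7.76 in HFD and 6.91 to 7.74 in ob/ob. It was lowest of all mice in ob/ob replicate 2, where Aqp1 was above every LFD mouse. In HFD replicate 3 both the endothelial mean and Aqp1 were the highest of all mice. The part of endothelial, red and duct cells in the value of Aqp1 was not tested.

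Aqp5 (chr15:99590782-99594829, plus strand) encodes the apical water channel of salivary and other exocrine glands, found in pancreas in the ducts. It was at 5.66, 5.70 and 5.44 with LFD, 5.44, 6.81 and 4.24 with HFD, and 6.15 and 8.84 in the ob/ob pair. The LFD mice lay close together, whereas HFD replicates 2 and 3 lay on opposite sides of them and ob/ob replicate 2 was far above all other mice. The spread of Aqp5 over the 8 mice (SD 1.35) was reached by 1.65% of all genes. The log2 difference was 1.90 between ob/ob and LFD (standard error 0.85, unadjusted p = 0.0544, adjusted p = 0.271 with limma) and 2.001 between ob/ob and HFD (standard error 0.85, unadjusted p = 0.0447, adjusted p = 1.00). Without ob/ob replicate 2 the same differences were 0.55 and 0.66, and without ob/ob replicate 1 they were 3.24 and 3.35. Between HFD and LFD the difference was -0.10, with the direction set by HFD replicate 3, without which it was 0.52.

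**Figure D2:**
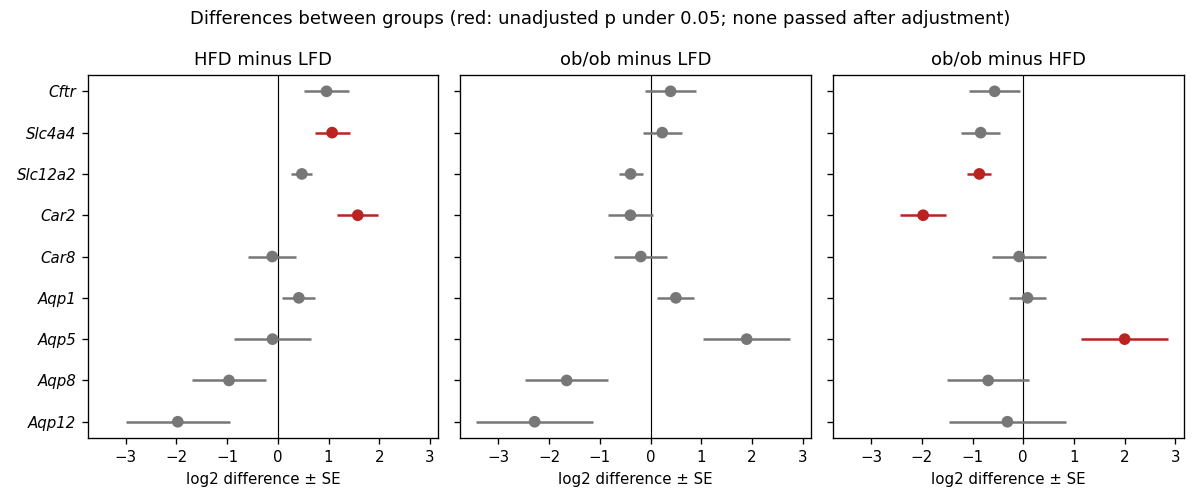
Log2 difference of each gene for HFD minus LFD, ob/ob minus LFD and ob/ob minus HFD, with its standard error from limma. Points in red had an unadjusted p-value under 0.05, which held for Car2 and Slc4a4 in the first panel, none in the second and Slc12a2, Car2 and Aqp5 in the last, and none had an adjusted p-value under 0.05.

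Aqp12 (chr1:93006334-93012269, plus strand) encodes an aquaporin of the membranes inside acinar cells and is known from pancreas. Its rlog values were 11.42, 11.60 and 12.22 with LFD, 11.92, 9.66 and 7.74 with HFD, and 10.93 and 7.995 in the ob/ob pair. HFD replicate 1 lay within the range of LFD, and both ob/ob mice lay below all LFD mice. Of all genes, 0.299% varied as much over the 8 mice as Aqp12 did (SD 1.76). The log2 difference was -1.97 between HFD and LFD (standard error 1.03, unadjusted p = 0.089, adjusted p = 0.309 with limma), -2.29 between ob/ob and LFD (standard error 1.15, adjusted p = 0.304) and -2.13 between the mean of both obese groups and LFD (standard error 0.93, unadjusted p = 0.0487, adjusted p = 0.195), where 1 of 9 genes had an unadjusted p-value under 0.05 beside 25.4% of all genes, none passed the adjustment (0.0% of all genes) and 0 of 9 had groups without overlap (18.4% of all genes). Without HFD replicate 1 the difference between HFD and LFD was -3.05 (adjusted p = 0.0388 with limma), and without HFD replicate 3 it was -0.95. The difference between ob/ob and LFD was -0.82 without ob/ob replicate 2 and -3.75 without ob/ob replicate 1.

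Aqp8 (chr7:123462291-123468004, plus strand) encodes a channel for water and small molecules such as ammonia and hydrogen peroxide, found in acinar cells. It was at 7.31, 7.19 and 7.69 with LFD, 7.58, 6.07 and 5.65 with HFD, and 7.19 and 4.30 in the ob/ob pair. HFD replicate 1 again lay within the LFD range, and ob/ob replicate 1 was just below it. The log2 difference was -0.96 between HFD and LFD (standard error 0.73, adjusted p = 0.463 with limma) and -1.65 between ob/ob and LFD (standard error 0.81, unadjusted p = 0.0736, adjusted p = 0.294). Without ob/ob replicate 2 the latter was -0.21, and without ob/ob replicate 1 it was -3.09.

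The level of Aqp12 moved with that of the acinar genes in every mouse. The mean rlog of the 30 acinar markers was 17.0 to 17.5 in LFD, 13.3 to 17.3 in HFD and 13.6 to 16.6 in ob/ob. Aqp12 lay below this mean by a nearly constant amount, with differences between -5.70 and -5.27 in all 8 mice, a range of 0.43 where Aqp12 itself had a range of 4.48. The SD of this difference was 0.14, at or below which lay 9 of the 15017 genes outside the acinar list, or 0.0599%. The acinar markers themselves had a median SD of 0.17 against their own mean. For Aqp8 the SD was 0.74, reached by 1.58% of genes, and HFD replicate 3 departed from the other mice with a difference of -7.65, where the other 7 mice had differences from -10.0 to -9.15. Car8 had an SD of 1.31, reached by 10.5% of genes, and the other 6 transport genes had SDs from 1.88 to 2.46, where the median of the genes outside the list was 1.76. With the acinar mean as a covariate in limma, the difference of Aqp12 was 0.02 between HFD and LFD and -0.14 between ob/ob and LFD. This comparison with the acinar mean was chosen after the values were seen.

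**Figure D3:**
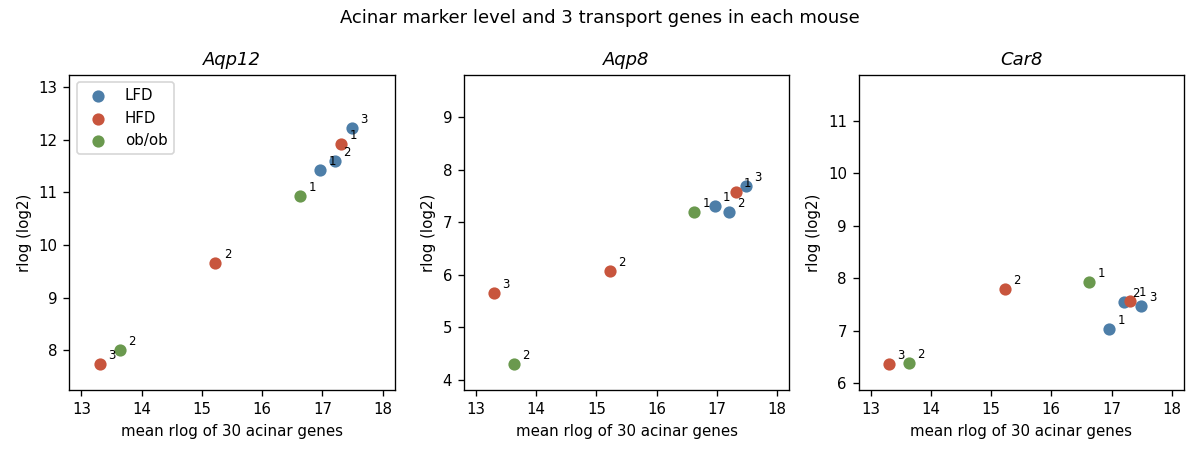
The rlog value of Aqp12, Aqp8 and Car8 in each mouse against the mean rlog of 30 acinar markers in the same mouse, with replicate numbers beside the points and axes of equal length in the 3 panels. Aqp12 follows the acinar mean over its whole range, Aqp8 does so except in HFD replicate 3, and Car8 in HFD replicate 2 and ob/ob replicate 1 is as high as or above its level in LFD.

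The sequences upstream of the starts of Aqp12 and Aqp8 are shown because both genes were low in the acinar-poor mice. In acinar cells the PTF1 complex, made of PTF1A, a common bHLH partner and RBPJ or RBPJL, is known to bind an E-box followed by a second box that RBPJ proteins recognize. Capitals mark E-boxes (CANNTG) and RBPJ boxes (TGGGAA, on the other strand TTCCCA), which were searched on both strands. The sequences are the 250 bases before the RefSeq start on GRCm38.p6, plus strand, at chr1:93006084-93006333 for Aqp12 and chr7:123462044-123462293 for Aqp8.
Aqp12: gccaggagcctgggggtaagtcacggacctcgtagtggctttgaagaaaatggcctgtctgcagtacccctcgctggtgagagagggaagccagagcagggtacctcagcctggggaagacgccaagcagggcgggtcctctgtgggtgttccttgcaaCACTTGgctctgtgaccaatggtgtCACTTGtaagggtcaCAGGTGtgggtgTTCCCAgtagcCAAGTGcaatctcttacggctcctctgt
Aqp8: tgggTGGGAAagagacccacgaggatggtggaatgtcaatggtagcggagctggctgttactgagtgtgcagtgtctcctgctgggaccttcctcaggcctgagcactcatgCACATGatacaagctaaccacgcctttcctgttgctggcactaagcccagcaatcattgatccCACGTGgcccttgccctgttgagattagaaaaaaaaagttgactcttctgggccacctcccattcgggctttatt

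Aqp12 held 4 E-boxes within 91 bases of its start, and the E-box at -51 to -46 was followed by an RBPJ box at -39 to -34. Aqp8 held 2 E-boxes, at -138 to -133 and -75 to -70, and an RBPJ box at -246 to -241, away from both. Of 32851 RefSeq promoter windows of 300 bases, from 250 before to 50 after the start, 72.3% held an E-box, 25.6% an RBPJ box and 19.0% both. The arrangement seen in Aqp12, CANNTGNNNNNNTTCCCA on either strand, was searched after it was noticed, and 33 of the windows, 0.1%, held it. It was in 1 of the 6 transport genes with a window, Aqp12, and in 0 of the 24 acinar markers with a window. Only this spacing and these letters were searched in the acinar markers, so the count does not show whether they hold other PTF1 sites. Promoter windows for Car2, Car8 and Slc12a2 were not used here.

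Levels of different genes can be compared only per length, for which the log2 of the longest coding transcript in kilobases was subtracted from the rlog mean. On this scale, in LFD, Aqp12 was highest with 11.6, followed by Aqp1 with 7.62, Slc12a2 with 7.39, Aqp8 with 6.83, Car2 with 6.81, Car8 with 5.41, Aqp5 with 4.76, Slc4a4 with 3.54 and Cftr with 3.51. The neighbours Aqp1 and Slc12a2, Aqp8 and Car2, and Slc4a4 and Cftr differed by less than the larger of their SDs over the LFD mice. The order also depends on the transcript taken, as coding transcripts spanned 587 to 1788 bases for Car2, 831 to 1797 for Aqp5 and 371 to 7931 for Slc4a4. In HFD the order began with Aqp12 (9.65), Car2 (8.38) and Aqp1 (8.03), with SDs over the HFD mice of 2.09, 0.71 and 0.68 that exceed the gaps between Car2 and Aqp1 and between Aqp12 and Car2. In ob/ob it began with Aqp12 (9.34) and Aqp1 (8.12), and Aqp5 was at 6.65.

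The other genes of fluid secretion were taken from 7 lists of 98 genes, of which 78 were measured. With limma, 0 of the 78 passed an adjusted p-value of 0.05 in HFD against LFD, and 14 had an unadjusted p-value under 0.05, 11 higher and 3 lower in HFD, or 17.9% beside 19.8% of all genes. Between ob/ob and LFD the same counts were 0, 10 and 11, and 26.9% had an unadjusted p-value under 0.05 beside 18.8% of all genes. Without HFD replicate 1, 14 of the 78 passed an adjusted p-value of 0.05 for HFD against LFD, beside 18.7% of all genes. Without HFD replicate 3, the unadjusted count for HFD was 5 beside 10.6% of all genes, and without ob/ob replicate 2 that for ob/ob was 9 beside 5.0% of all genes.

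Among 9 other carbonic anhydrases, Car9, the membrane enzyme induced by hypoxia, had the largest positive difference between HFD and LFD, 1.57 (standard error 0.55, unadjusted p = 0.0195, adjusted p = 0.204 with limma), and Car11, a catalytically inactive relative, the most negative, -0.66. Between ob/ob and LFD, the cytosolic Car13 had the largest positive difference, 1.46 (standard error 0.48, adjusted p = 0.211 with limma, and 0.73 without ob/ob replicate 2), and Car15 the most negative, -1.08. Of 11 anion exchangers, Slc26a3, an apical chloride-bicarbonate exchanger, had a mean difference of 1.87 in HFD with a standard error of 1.19, which came from HFD replicate 3, at 7.39 where HFD replicates 1 and 2 were at 2.35 and 2.16, and without that mouse it was 0.16. Slc4a10, a sodium-dependent bicarbonate transporter, was the most negative in HFD (-0.46) and the most positive in ob/ob (1.35, standard error 0.47, adjusted p = 0.223 with limma, and 0.66 without ob/ob replicate 1). Slc26a6, the exchanger that works beside CFTR in pancreatic ducts, was the most negative in ob/ob, with -0.97 and a standard error of 0.56, or -0.36 without ob/ob replicate 2.

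Among 12 chloride channels and cation-chloride cotransporters, Clca1, a secreted modulator of chloride currents, was higher in HFD by 1.90 (standard error 1.06, and 0.87 without HFD replicate 3), the chloride channel Clcn2 had differences of -0.07 in HFD and -0.89 in ob/ob (standard errors 0.27 and 0.31), and the potassium-chloride cotransporter Slc12a4 was higher in ob/ob by 1.30 (standard error 0.48, and 0.80 without ob/ob replicate 2). In the 4 other aquaporins measured, the glycerol channel Aqp9 was higher in HFD by 1.03 (standard error 0.49) and Aqp4 higher in ob/ob by 1.221 (standard error 0.55, and 0.66 without ob/ob replicate 1). Aqp11, an aquaporin of inner membranes, differed by 0.06 in HFD, which became -0.03 with each mouse centred on its median, and by -0.65 in ob/ob. The adjusted p-values of these genes were between 0.22 and 0.952 with limma.

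Of 12 sodium transporters and pump subunits, the sodium-proton exchanger Slc9a2 was higher in HFD by 1.82 (standard error 0.79, unadjusted p = 0.0471, adjusted p = 0.248 with limma), and by 0.95 without HFD replicate 3. Subunits of the epithelial sodium channel ENaC stood at both ends in ob/ob, with Scnn1b higher than LFD by 1.14 and Scnn1a lower by a log2 difference of -0.90 (standard errors 0.37 and 0.31), at mean rlog values under 5 where rlog shrinks most. In HFD, Scnn1b was the most negative, with -0.37. Of 7 potassium channels, the calcium-activated Kcnn4 had the largest positive difference in HFD (1.27, standard error 0.49, unadjusted p = 0.0302, adjusted p = 0.222 with limma) and in ob/ob (0.92, standard error 0.55, and 0.51 without ob/ob replicate 2). Kcnk1, a channel of background potassium currents, was the most negative in both, with -1.01 and -1.45, which were -0.64 without HFD replicate 3 and -0.40 without ob/ob replicate 2.

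Among 23 receptors and regulators of secretion, the adenosine receptor Adora2b had the largest positive difference in HFD, 1.19 (standard error 0.31, unadjusted p = 0.00438, adjusted p = 0.18 with limma), and differed by 0.91 in ob/ob. Wnk2, of the kinase family that governs chloride cotransport, was the most negative in both comparisons, with -1.41 in HFD and -1.66 in ob/ob (standard errors 0.61 and 0.68), or -0.92 without HFD replicate 3 and -0.58 without ob/ob replicate 2. Its relative Wnk3 was the most positive in ob/ob, with 1.34 (standard error 0.40), or 0.81 without ob/ob replicate 2. As for the ENaC subunits, mean rlog values were under 5 in every group for Adora2b, Wnk3, Car11, Car15, Slc4a10, Slc26a3 and Aqp4.

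**Figure D4:**
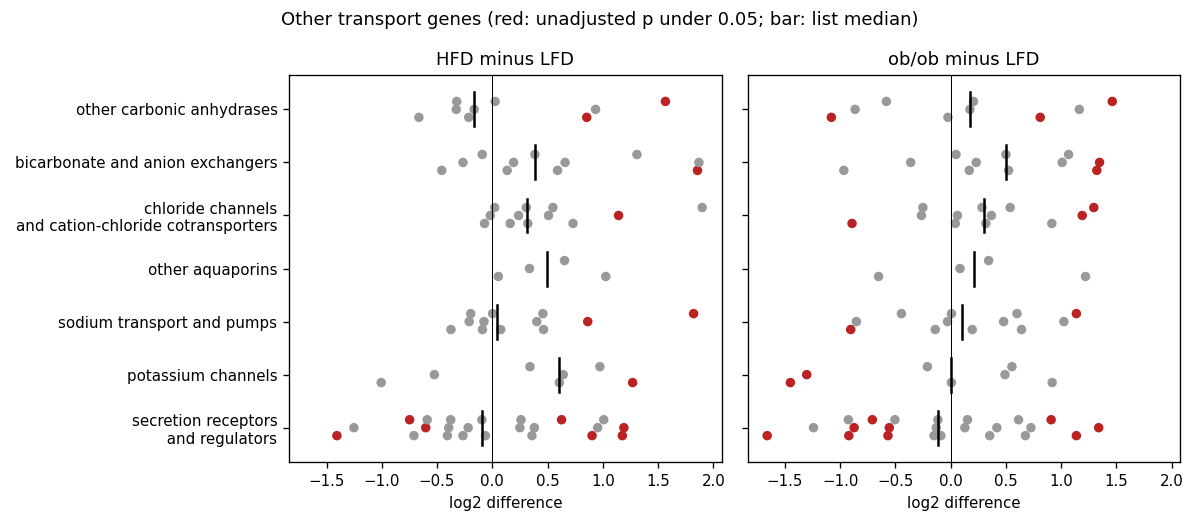
Log2 differences of 78 other transport genes in 7 lists for HFD minus LFD and ob/ob minus LFD, 1 point per gene, with a bar at the median of each list. Points in red had an unadjusted p-value under 0.05, which held for 14 genes in HFD and 21 in ob/ob, and the list medians lay between -0.16 and 0.61 in HFD and between -0.12 and 0.50 in ob/ob.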

How the data were processed

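RNA-Seq of pancreas from 8 mice was used, grouped by the labels. The authors quantified transcripts of Gencode M18 (GRCm38.p6) with Salmon 0.11.3, summarized them per gene with tximport, and deposited the rlog values of DESeq2 1.22.2, which are on a log2 scale. The filter that left 15047 genes is not described, counts were not used here and depth is unknown. Reads common to similar transcripts are divided by a model in Salmon, which adds an uncertainty for overlapping genes.

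Group means were fitted with limma 3.58.1 (R 4.3.3) over all genes and 8 mice, with a variance trend, two-sided tests and Benjamini-Hochberg adjustment, and the threshold was 0.05. The fit was tested on simulated data. Replicates are separate mice, and p-values measure the spread between them. Coordinates and lengths are from Gencode M21 (GRCm38), and promoters from RefSeq (GRCm38.p6). No batch is named in the labels.

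The genes and lists were chosen with earlier results of these data known. Named genes are the 9 transport genes, in each other list the genes with the largest positive and negative difference of HFD and of ob/ob from LFD, and for each transport gene the 2 genes with the smallest root mean square difference of mean-centred rlog, of which 1 is not reported here. Alternatives were a variance with no trend, a fit of just the mice being compared, a minimum mean rlog of 5, centring on medians, quantile normalization, weights per mouse, a replicate block, the acinar mean as a covariate and leaving out each mouse.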

Additional observations from a re-analysis of the deposited data

Results flagged for a closer look

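Car2 and Slc12a2 were singled out because every mouse of the 2 obesity models lay on opposite sides of the LFD mean, with all 3 HFD mice above it and both ob/ob mice below it for each gene. Between ob/ob and HFD, Car2 differed by -1.97 (unadjusted p = 0.00191, adjusted p = 0.883 with limma) and Slc12a2 by -0.87 (unadjusted p = 0.00544, adjusted p = 1.00), so neither passed the adjustment over 15047 genes. The genes were chosen in the same mice by a pattern that sets HFD and ob/ob apart, so these values are not an independent test of it. The share of all genes with this pattern was not counted. On leaving out each mouse in turn, the difference stayed between -2.22 and -1.56 for Car2 and between -1.08 and -0.72 for Slc12a2. For Slc12a2, HFD replicate 1 lay within the range of the LFD mice.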

How the results depend on the processing

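Directions of the 9 transport genes were the same with each mouse centred on its median and with quantile normalization. Leaving out each mouse in turn, 0 to 5 of these genes passed an adjusted p-value of 0.05 for HFD against LFD and 1 to 6 an unadjusted one (0 to 14 and 5 to 27 of the other 78 genes). HFD replicate 1 gave the highest and, for the 9 genes, HFD replicate 2 the lowest unadjusted count. The share of all genes with an unadjusted p-value under 0.05 moved as well. For HFD against LFD it was 36.2% without HFD replicate 1 (18.7% adjusted) and 9.84% without HFD replicate 2. For ob/ob against LFD it was 27.1%, 16.1% and 21.6% without HFD replicates 1, 2 and 3. For both obese groups it was 38.7% without HFD replicate 1 (22.1% adjusted) and 18.3% without HFD replicate 2. For ob/ob against LFD the unadjusted counts were 0 to 3 and 9 to 25, the adjusted ones 0 and 0 to 1; 3 was reached without HFD replicate 1 or ob/ob replicate 1, 2 without HFD replicate 3 and 1 without HFD replicate 2. For ob/ob against HFD 4 to 16 of the other genes passed unadjusted, and for both obese groups against LFD 0 to 2 and 0 to 17 passed adjusted, 0 to 5 and 9 to 28 unadjusted.

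Array weights gave HFD replicate 2 a weight of 9.36 and HFD replicate 1 a weight of 0.273. For HFD against LFD, 6 of the 9 and 31 of the 78 genes then passed the adjusted threshold, as did 44.2% of all genes. Unadjusted it was 6 and 37, beside 52.7% of all genes. For ob/ob against LFD it was 2 of the 9 unadjusted (21.8% of all genes). For both obese groups it was 3 and 19 adjusted (28.5%), and 4 and 34 unadjusted (42.0%). With the acinar mean as covariate the unadjusted counts were 1 and 8 for HFD (10.8% of all genes), 1 of the 9 for ob/ob (10.1%), and 0 and 9 for both obese groups (11.3%). Quantile normalization gave 9 of the 78 for HFD and 0 of the 9 for both obese groups, a variance without the trend 0 of the 9 for both obese groups. With genes of a mean rlog of at least 5 it was 0 of the 9 for both obese groups, 11 of the other genes for ob/ob against LFD and 3 against HFD. With only the groups compared it was 2 of the 9 for ob/ob against LFD and 7 of the 78 against HFD. The share of all genes was not counted for quantile normalization, the fit without the trend, the mean rlog filter or only the groups compared. The cause of these moves was not tested.

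Deviations of same-numbered LFD and HFD mice from their group means correlated by -0.0595, 0.113 and -0.281, those of LFD and ob/ob mice by -0.0967 and 0.128 and those of HFD and ob/ob mice by 0.592 and 0.303. Not every pair exceeded 0.1 and the labels give no shared origin, so the numbers were not taken to pair the mice. With the replicate block 3 of the 9 genes had an unadjusted p-value under 0.05 for ob/ob against LFD (21.6% of all genes) and 2 for both obese groups (27.6%).

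With the acinar covariate the sign turned for Cftr (-0.079) and Slc4a4 (-0.22) in ob/ob against LFD, for Car8 (0.62 in HFD, 0.60 in ob/ob), Aqp1 (-0.096 and -0.051), and, in HFD, Aqp8 (0.31), Aqp12 (0.017), Car11 (0.125) and Kcnk1 (0.025). With array weights it turned in HFD for Car8 (0.34), Aqp5 (1.01), Aqp11 (-0.31) and Clca1 (-0.017), and for Aqp11 also with median centring (-0.027) and quantile normalization (-0.16). Leaving out a mouse turned Car8 in HFD (-0.39 to 0.33), in ob/ob (-0.96 to 0.58) and between them (-0.85 to 0.69), Aqp1 (-0.24 to 0.43), Aqp8 (-2.13 to 0.75) and Aqp12 (-1.78 to 1.15) in ob/ob against HFD, Aqp5 in HFD (-0.76 to 0.52), Aqp11 in HFD (-0.29 to 0.28) and ob/ob (-1.311 to 0.007), and Clcn2 in HFD (-0.33 to 0.15). The other directions recomputed, those of the 9 genes and of the genes named as extreme in a list, did not turn. With 2 ob/ob mice and unknown depth, small differences were not detectable, and a difference above its standard error was not thereby detectable. For Car2, HFD exceeded LFD by 1.58 with a standard error of 0.40 and did not pass the adjustment (adjusted p = 0.179 with limma).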

Other observations

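For each transport gene, the genes with the most similar pattern were found by the root mean square difference of mean-centred rlog values over the 8 mice, which is small where both the direction and the size of the deviations match. Aqp12 had the closest partners, with 0.064 for Cuzd1, a protein of zymogen granules, and 0.066 for Tmed6. Aqp1 came next, with 0.102 for Slc12a7, a potassium-chloride cotransporter, and 0.113 for Cdc42se2. Cftr was most like Cdh5, the cadherin of endothelial junctions, with 0.109, and Sgpp2, with 0.144. In HFD replicate 3, the mouse with the highest Cftr, Cdh5 was at 8.94, and it was between 6.94 and 7.86 in the other 7 mice.

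The partners of the other genes were less close. Slc12a2 was most like Plpp2 (0.146) and Kcnj2 (0.154), Aqp8 like Tc2n (0.152) and the transcription factor gene Foxa3 (0.186), Slc4a4 like the immediate early gene Fos (0.17), and Car8 like Crp (0.184) and Trp53inp1 (0.213). Car2 and Aqp5 had the least close partners, with 0.333 for Gstp2 and 0.343 for Duoxa2 in the case of Car2, and 0.524 for Cldn1 and 0.535 for Lmo1 in the case of Aqp5. The smallest values are found among all genes and over 8 mice whose acinar share also differed, and they carry no test.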
